A study of Arabidopsis thaliana with 5 samples.

Results

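A small group of genes had its highest transcript level in a single floral bud sample, the second of the L*er* wild-type replicates. The members were chosen by measured values: a probe set was taken where its log2 signal in L*er* replicate 2 was at least 0.8, or 1.74-fold, above that in each of the other 4 arrays. Of 22746 probe sets, 32 met this gap. The cold and clock genes *COR27*, AT4G33980, *GI*, *COR15A*, *COR15B* and AT4G30650 were left out by name, as the rule set out. This removed 5 of the 32, because *GI* did not meet the gap, and left 27 members. Of the 27, 13 are paired with 1 gene in the platform's annotation, 1 with several genes and 13 with none. The choice used the values of all 5 arrays, so that the height of L*er* replicate 2 in these genes is a description and was not tested.

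The study compared unopened floral buds of the *ask1* mutant with those of wild-type Landsberg *erecta* (L*er*) on Affymetrix ATH1 arrays. Both genotypes share the L*er* background, and *ask1* lacks a Skp1-like subunit of the SCF ubiquitin ligases. The mutant plants were homozygotes picked by their phenotype (small plants, reduced petals, sterile anthers) among the progeny of heterozygotes, and the buds were whole clusters from the primary inflorescence of plants on soil in a growth room under long days, with no cold treatment stated. The 5 arrays hold 3 *ask1* and 2 L*er* samples labelled as biological replicates, and the other L*er* arrays that the paper counts were not analysed here. Each value is a log2 signal of a probe set after RMA, the background correction, quantile normalization and summary that the authors applied.

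Transcript levels of many plant genes follow the time of day. The circadian clock is a loop in which factors that peak near dawn repress genes of the afternoon and evening, and evening genes in turn act back on the morning factors. Cold acts through CBF transcription factors, which turn on genes for protective proteins such as the COR15 proteins of the chloroplast, and the clock gates how strongly they respond. Some genes, *COR27* among them, belong to both the evening and the cold program, and light resets the clock. A set of genes high in 1 sample of buds can therefore be read against lists of clock, cold and light genes.

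The 5 arrays were of similar brightness. Their median log2 signals lay between 7.07 and 7.18, and 22.8% to 24.5% of probe sets were under 5 on the log2 scale. *ask1* replicates 1 and 3 had the closest values of any pair, with 24 probe sets at least 2-fold apart, while the other 9 pairs had 292 to 561. L*er* replicates 1 and 2 had 292. The buds were checked against floral markers. *CLV3*, *UFO* and *SPL* (AT4G27330), named here from a list of 14 floral organ and meristem genes, had log2 signals of 5.26 to 8.60 on the 5 arrays. The anther tapetum genes AT5G07230, *AMS* and AT1G75920, 3 of 24 listed, had a summed linear signal of 433 to 714 in *ask1*, 2913 in L*er* replicate 1 and 361 in L*er* replicate 2. Of these, AT5G07230 was by far the brightest and was lowest in L*er* replicate 2, at 8.31 beside 8.62 in *ask1* replicate 2 (log2). *AMS* and AT1G75920 were dim and lowest in *ask1* replicate 2, at 4.39 and 4.30 beside 4.61 and 4.32 in L*er* replicate 2. The low sum of L*er* replicate 2 thus followed AT5G07230, and any part of the tapetum in the levels of the members was not tested. In bulk buds, fewer cells of a type and less RNA per cell cannot be told apart.

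The same rule was applied to each array in turn and in the opposite direction, for a description of how often 1 array stood apart. L*er* replicate 2 was above all others by the gap in 32 probe sets and below all others in 49. The counts above were 118 for L*er* replicate 1 and 94 for *ask1* replicate 2, and 8 and 1 for *ask1* replicates 3 and 1. The last 2 arrays resemble each other, which leaves few probe sets in which either can stand alone. The set high in L*er* replicate 2 was thus smaller than the sets high in L*er* replicate 1 and in *ask1* replicate 2.

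**Figure D1:**
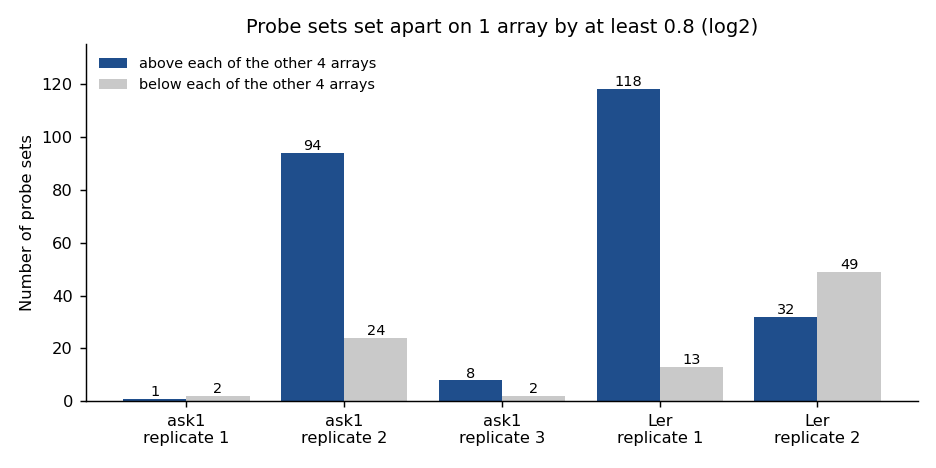
Number of probe sets (vertical axis) that 1 array held at least 0.8 (log2) above (blue) or below (grey) each of the other 4 arrays, for each of the 5 arrays. L*er* replicate 2 had 32 above, of which 27 are the members after the named cold and clock genes were left out, and 49 below.

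Over the 27 members, the excess of L*er* replicate 2 over the highest other array ran from 0.82 to 2.67 on the log2 scale, with a median of 1.06 (2.09-fold). Against L*er* replicate 1 alone, the difference ran from 0.84 to 3.06, with a median of 1.13. It reached 2-fold in 22 members, beside 72 probe sets (0.317%) on the whole array. No member had all its signals under 5, as 20.8% of all probe sets did, and 2 had a mean under 5 on the other 4 arrays. Just inside the gap were AT1G70820, AT5G12270 and *scpl35*, with excesses of 0.84, 0.84 and 0.90. The named genes just outside were AT3G05980, AT5G49640 and AT2G16990, with 0.80, 0.76 and 0.69, where 0.80 stands for a value slightly under the gap.

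**Figure D2:**
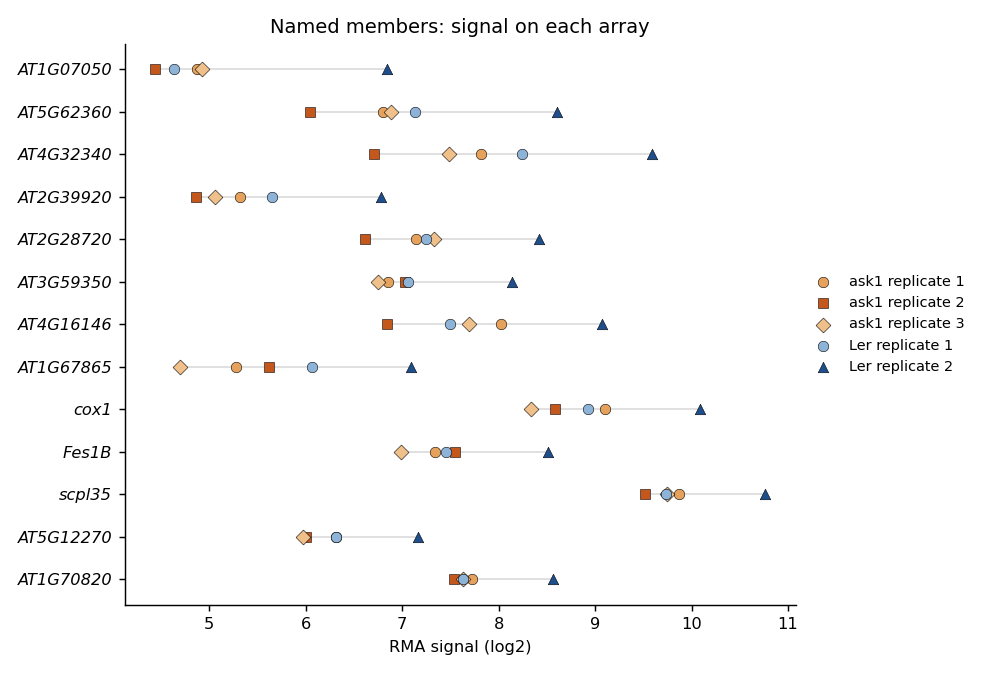
RMA log2 signal (horizontal axis) of the 13 members paired with 1 gene, on each of the 5 arrays (symbols), ordered by the excess of L*er* replicate 2. The triangle of L*er* replicate 2 lies to the right of the other 4 symbols in every row, as the choice of genes requires, with the widest gap for AT1G07050 (1.91).

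The named member that stood out most encodes a protein with a CCT motif, a domain shared with CONSTANS and with clock proteins of the pseudo-response regulator family. AT1G07050 had log2 signals of 4.87, 4.44 and 4.93 in the *ask1* replicates, 4.64 in L*er* replicate 1 and 6.84 in L*er* replicate 2. The first 4 values lay within 0.49 of each other near the dim end of the scale, and L*er* replicate 2 was 3.76-fold above the highest of them. A further nuclear gene was AT2G28720, a histone H2B gene, with 7.14, 6.62 and 7.33 in *ask1*, 7.25 in L*er* replicate 1 and 8.42 in L*er* replicate 2. Here L*er* replicate 1 fell inside the range of the *ask1* arrays, and the excess was 1.09. Histone H2B genes are alike in sequence, and whether the probe set also reads other copies was not tested.

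Signalling genes were represented by a protein kinase and by a relative of small phosphoproteins known from animals as phosphatase inhibitors. The kinase gene AT3G59350 had signals of 6.85, 7.03 and 6.75 in *ask1*, 7.06 in L*er* replicate 1 and 8.14 in L*er* replicate 2. Its other 4 arrays spanned 0.31, so that L*er* replicate 2 alone was apart. AT4G16146, related to the cAMP-regulated phosphoprotein 19, had 8.02, 6.84 and 7.70 in *ask1*, 7.50 in L*er* replicate 1 and 9.07 in L*er* replicate 2. In this gene the *ask1* arrays themselves spanned 1.18, more than the 1.05 by which L*er* replicate 2 exceeded the highest of them, and L*er* replicate 1 lay between them.

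Genes of the cell wall and the secretory route formed a further pair. AT5G62360 encodes a member of the invertase and pectin methylesterase inhibitor family, whose proteins restrain enzymes of sucrose cleavage or of pectin modification. Its signals were 6.80, 6.04 and 6.89 in *ask1*, 7.13 in L*er* replicate 1 and 8.60 in L*er* replicate 2. The rule placed L*er* replicate 2 above all 3 *ask1* arrays. L*er* replicate 1 was also above them, as in 28.8% of all probe sets, and L*er* replicate 2 was 2.77-fold above L*er* replicate 1. The serine carboxypeptidase-like gene *scpl35* (AT5G08260) was the brightest named member, with 9.87, 9.52 and 9.75 in *ask1*, 9.74 in L*er* replicate 1 and 10.76 in L*er* replicate 2. None of the 28 other *scpl* genes named on the array met the gap, which only 32 of all 22746 probe sets met. Their differences between L*er* replicates 2 and 1 ran from -0.59 to 0.45 on the log2 scale, beside 1.02 for *scpl35*, which was chosen for its height.

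Further named members were 3 genes annotated as enzymes and a repeat protein. AT4G32340, a tetratricopeptide repeat-like protein whose repeats serve in protein binding, had signals of 7.82, 6.71 and 7.49 in *ask1*, 8.25 in L*er* replicate 1 and 9.59 in L*er* replicate 2. As in AT5G62360, L*er* replicate 1 was also above the 3 *ask1* arrays, with *ask1* replicate 2 lowest. AT2G39920, an acid phosphatase of the HAD superfamily, had 5.32, 4.87 and 5.06 in *ask1*, 5.66 in L*er* replicate 1 and 6.79 in L*er* replicate 2. Again L*er* replicate 1 was above the 3 *ask1* arrays, and L*er* replicate 2 was 2.19-fold above L*er* replicate 1. The oxygenase gene AT5G12270, of the family that uses 2-oxoglutarate and iron, had 6.31, 6.00 and 5.97 in *ask1*, 6.32 in L*er* replicate 1 and 7.16 in L*er* replicate 2. L*er* replicate 1 was here at the level of *ask1* replicate 1. AT1G70820, annotated as a putative phosphoglucomutase, an enzyme of sugar phosphate metabolism, had 7.73, 7.54 and 7.63 in *ask1*, 7.63 in L*er* replicate 1 and 8.56 in L*er* replicate 2. The first 4 values spanned 0.19, the narrowest range among the named members.

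The remaining named members included a chaperone factor and a mitochondrial gene. *Fes1B* (AT3G53800) is named after yeast Fes1, a nucleotide exchange factor of Hsp70. Its signals were 7.34, 7.55 and 6.99 in *ask1*, 7.45 in L*er* replicate 1 and 8.51 in L*er* replicate 2. Its relatives *Fes1A* and *Fes1C* did not share this, and differed between L*er* replicates 2 and 1 by 0.01 and 0.18. *cox1*, the mitochondrial gene for a core subunit of cytochrome c oxidase, had 9.11, 8.58 and 8.34 in *ask1*, 8.93 in L*er* replicate 1 and 10.08 in L*er* replicate 2. Of 22 other probe sets of mitochondrial genes, found by the names *nad*, *cox*, *ccb*, *matR* and *orfX* only, none met the gap, beside 32 of all 22746 probe sets. Their differences between L*er* replicates 2 and 1 ran from -0.82 to 0.42 with a median of 0.03, beside 1.16 for *cox1*. These gene families were picked for comparison after the members were seen. The absence of further genes past the gap in them is near the share over all probe sets, and nothing is read from it. AT1G67865 had signals of 5.28, 5.63 and 4.70 in *ask1*, 6.07 in L*er* replicate 1 and 7.09 in L*er* replicate 2. In this gene too L*er* replicate 1 was above the *ask1* arrays.

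Among the 27 members, the largest excesses were in probe sets with no gene name here. The probe set 247867_at had 4.54, 4.55 and 4.52 in *ask1*, 4.37 in L*er* replicate 1 and 7.22 in L*er* replicate 2, an excess of 6.35-fold. Its other 4 arrays were dim and spanned 0.18. The probe set 248337_at had 6.24, 5.72 and 6.20 in *ask1*, 5.78 in L*er* replicate 1 and 8.84 in L*er* replicate 2, an excess of 6.08-fold. On both, the L*er* replicates were farther apart than any *ask1* array was from L*er* replicate 1.

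None of the 13 named members was in any of 19 gene lists that cover the clock, cold, light, abscisic acid, stress and anther genes. The lists hold 337 entries, of which 51 were measured under a gene name, so that most genes of these programs cannot be read here. Of the 51, 5 met the gap, and all of these were among the genes left out by name: 2 of 4 measured afternoon and evening clock genes and 3 of 5 measured cold genes. Neither the 1 measured morning clock gene nor the 1 measured light signalling gene met it. Over the whole array, 51 of the 13513 probe sets paired with 1 gene were in a list. With the 5 that met the gap removed by name, the absence of listed genes among the named members followed from the rule. Nothing is read from it. *cox1* had no locus here and could not be matched to a list. The 13 members without a gene name could not be placed. The member paired with several genes, 246481_s_at, was not compared with the lists. It was the brightest member, with 13.35 in L*er* replicate 2, and whether its genes belong to these programs is not shown here.

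The 5 left-out genes that met the gap had excesses of 1.38 to 2.67, beside 0.82 to 2.67 in the members. *COR27*, a cold and evening gene that acts on the clock, had signals of 7.18, 7.00 and 7.42 in *ask1*, 6.85 in L*er* replicate 1 and 10.10 in L*er* replicate 2. AT4G33980, listed with the evening genes, had 5.56, 5.33 and 5.70 in *ask1*, 6.21 in L*er* replicate 1 and 8.56 in L*er* replicate 2. In both, the 4 other arrays stayed within 0.88. The cold genes AT4G30650, *COR15B* and *COR15A* were 1.48, 1.85 and 1.38 above the next highest array in L*er* replicate 2. In these 3 genes *ask1* replicate 2 was lowest, with signals of 6.62, 6.57 and 4.94 beside 9.22, 8.45 and 6.40 in *ask1* replicate 3.

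Further genes of the same lists did not meet the gap. *GI*, the evening gene GIGANTEA, had 9.21, 8.49 and 8.99 in *ask1*, 7.04 in L*er* replicate 1 and 8.94 in L*er* replicate 2, so that L*er* replicate 1 was the array apart. AT1G69570, listed with the evening genes, had 5.54, 5.86 and 5.15 in *ask1*, 5.26 in L*er* replicate 1 and 5.62 in L*er* replicate 2. The morning clock gene AT5G52660, a Myb-like factor of the REVEILLE family, lay between 7.57 and 7.87 on all arrays. Its top value was that of L*er* replicate 2, by 0.10. Among cold genes, the dehydrin genes *LTI30* and *COR47* were highest in L*er* replicate 2, by 0.28 and 0.27. *HYH*, a light-signalling bZIP factor related to HY5, had 5.37, 5.95 and 5.77 in *ask1*, 4.52 in L*er* replicate 1 and 3.96 in L*er* replicate 2, its lowest value. The evening and cold genes that separated the L*er* arrays were thus a subset of those measured. Time of day, cold and other conditions at harvest cannot be told apart in these values, since each sample was harvested once. The growth room's temperature and day length are stated for all plants, but the hour of each sample's harvest is not given in the sources used here.

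**Figure D3:**
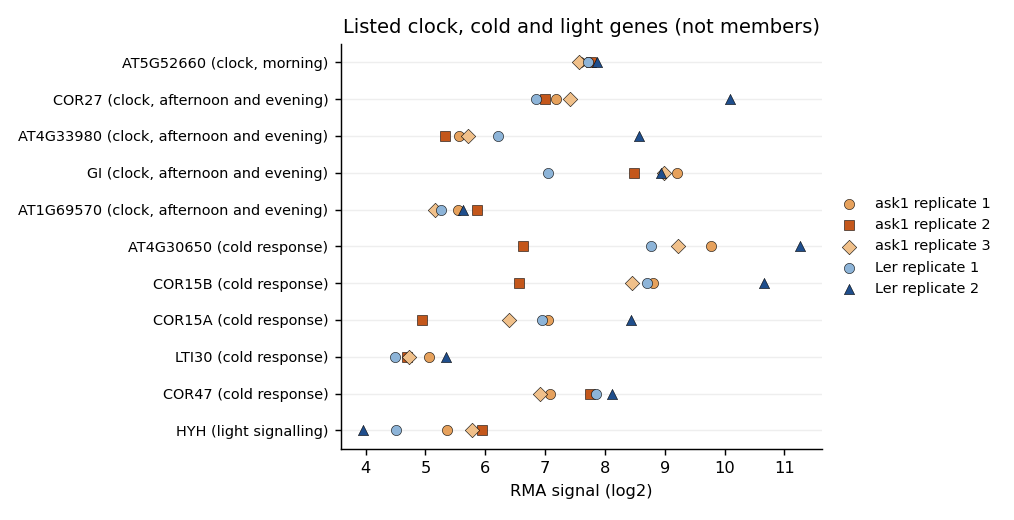
RMA log2 signal (horizontal axis) of the measured genes of the clock, cold and light lists, on each of the 5 arrays (symbols), none of which is a member. L*er* replicate 2 is far to the right for *COR27*, AT4G33980, AT4G30650, *COR15B* and *COR15A*, while *GI* sets L*er* replicate 1 apart and *HYH* is lowest in L*er* replicate 2.

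The members also varied on the 4 arrays other than L*er* replicate 2, where *ask1* replicate 2 tended to be lowest. It had the lowest of these 4 values in 20 of 27 members (74.1%; 8 of the 13 named), beside 29.3% of all probe sets. In AT4G16146, AT4G32340 and AT5G62360 it was 1.02, 0.95 and 0.80 below the mean of *ask1* replicates 1 and 3. In AT1G67865 it was 0.64 above that mean and was the highest *ask1* array. The next highest array after L*er* replicate 2 was L*er* replicate 1 in 11 members (40.7%) and *ask1* replicates 1, 2 and 3 in 9, 2 and 5. Over all probe sets, L*er* replicate 1 was the highest of these 4 arrays in 28.8%. The other 4 arrays spanned at least 1 on the log2 scale in 8 members (29.6%), beside 4.63% of all probe sets, and stayed within 0.5 in 9 members (33.3%), beside 78.2%. The rule used these 4 arrays too, and probe sets with all signals under 5 are in the comparison but not among the members, so that these shares are a description. Leaving out a comparison array can only add probe sets that meet the rule, with 48 found when *ask1* replicate 2 was omitted and 46 when L*er* replicate 1 was.

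**Figure D4:**
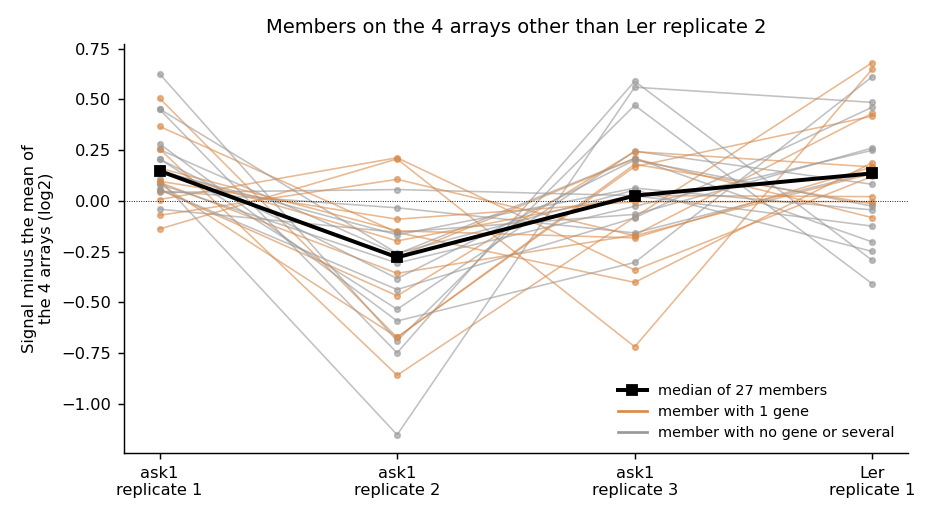
Log2 signal of each of the 27 members minus its mean over the 4 arrays other than L*er* replicate 2 (vertical axis), for those 4 arrays. Lines are members (orange with 1 gene, grey with none or several), and the black line is their median, which is lowest for *ask1* replicate 2, the lowest array in 20 of 27 members.

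Because L*er* replicate 2 is 1 of only 2 L*er* arrays, the members bear on the comparison of the genotypes. With all 5 arrays, the median log2 ratio of *ask1* to L*er* was -0.81 over the members and -0.01 over all probe sets, and all 27 ratios were below 0. This contrast contains the array that chose the members. At an adjusted p under 0.05 (limma, Benjamini-Hochberg over all probe sets) it called 3 probe sets (0.0132%) and no member. At an unadjusted p under 0.05, 9 members were lower in *ask1*, where 2.99% of all probe sets were, and no member was higher, where 3.95% were. At least 2-fold lower with such a p were 6 members, AT5G62360, AT4G32340, AT2G39920 and AT1G67865 among them, where 0.127% of all probe sets were. Nothing is read from these counts, since the rule fixed their direction.

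Without L*er* replicate 2, the 3 *ask1* arrays were compared with L*er* replicate 1, whose spread was taken to be that of *ask1*. The rule used these arrays too, and the shares over all probe sets include dim ones. The counts of members below are therefore a description. In this comparison the median ratio of the members was -0.18, beside -0.01 over all probe sets. The ratio was below 0 in 17 members (63.0%) and above 0 in 10, beside 51.4% of all probe sets below 0. By limma, 5 probe sets (0.022%) passed an adjusted p under 0.05 and none was a member, and the smallest adjusted p of a member was 0.591. At an unadjusted p under 0.05, 3 members (11.1%) were lower in *ask1*, where 4.73% of all probe sets were, and no member was higher, where 3.45% were. The only named one was AT2G39920, the acid phosphatase gene, with a log2 ratio of -0.58 ± 0.20 (SE), a 95% interval of -1.10 to -0.05 and, by limma, an unadjusted p of 0.037. Its p was 0.065 after each array was centred and 0.082 without *ask1* replicate 3 (limma, unadjusted), and between 0.014 and 0.039 under the other alternatives run. No member fell under the unadjusted p after centring, and fewer did with quantile normalization or without *ask1* replicate 3. Without *ask1* replicate 2 more members did, in both directions, as did more of all probe sets. The lowest ratios of named members were those of AT4G32340 (-0.91 ± 0.44, SE) and AT1G67865 (-0.87 ± 0.36), with intervals that include 0. AT1G70820 and AT4G16146 had ratios of 0.00 and 0.02, with intervals of -0.35 to 0.35 and -1.18 to 1.22.

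These calls changed when any *ask1* array was left out, and most without *ask1* replicate 2. When it too was omitted, only the closely alike *ask1* replicates 1 and 3 set the spread, and 1478 probe sets (6.5%) passed the adjusted p. Among them were 3 members, AT1G67865, which was lower in *ask1*, and 2 without a gene name, which were higher.

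**Figure D5:**
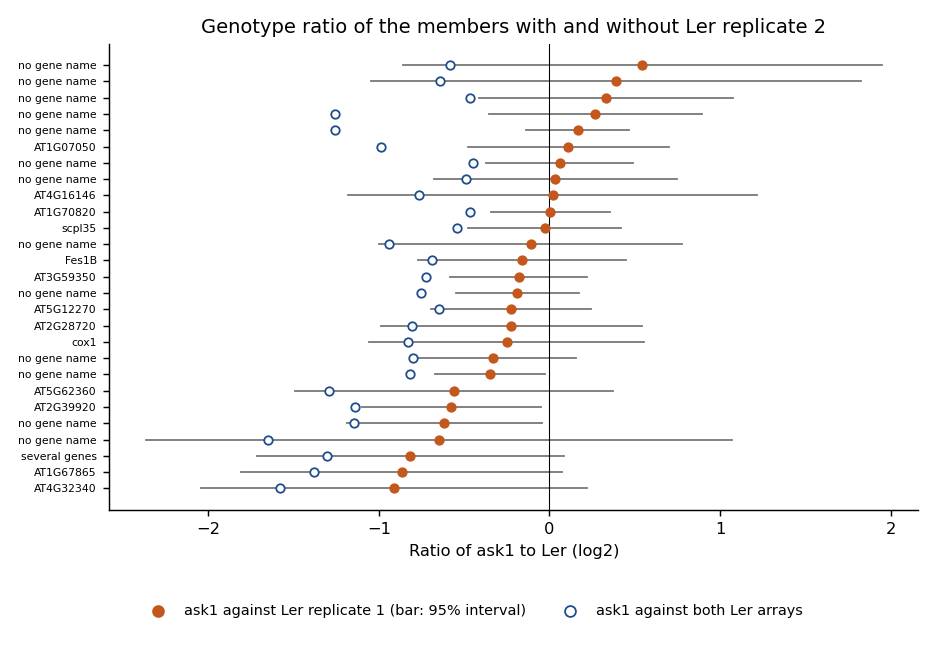
Log2 ratio of *ask1* to L*er* (horizontal axis) for the 27 members, with both L*er* arrays (open circles) and with L*er* replicate 1 only (filled circles, bars are 95% intervals from limma). All open circles lie below 0. The filled circles lie on both sides of 0, with 17 below and 10 above, where 51.4% of all probe sets are below.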

How the data were processed

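Total RNA of floral buds was hybridised to 5 ATH1 arrays, and groups were taken from the sample labels. The deposited table holds log2 signals, which the authors made with RMA (background correction, quantile normalization and summary per probe set); the RMA version is not given in the sources used here. Of 22746 probe sets, the platform's annotation pairs 13513 with 1 gene, 503 with several and 8730 with none. Gene names are those of the platform's annotation. Loci were taken from RefSeq (TAIR10.1), or from the platform's symbol where that was itself a locus, which gave 13484 of the 13513 a locus. RMA includes quantile normalization, yet the deposited arrays differed slightly in their medians (7.07 to 7.18), so centring and quantile normalization were run as alternatives.

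The members, the gene lists and the tests were chosen with earlier results of these data known. A linear model per probe set (limma 3.58.1 with eBayes, R 4.3.3) gave the 2-sided test of genotype, with Benjamini-Hochberg adjustment over all 22746 probe sets, once with all 5 arrays and once without L*er* replicate 2. The script was tested on simulated data. Named are the members with 1 gene, the 2 unnamed members with the largest excess, the genes next to the gap and the clock, cold and light genes of the lists; genes of 3 families and markers of the tissue were added after the values were seen. No block was used, as the methods name none. The number of arrays limits the precision, and p-values set the difference between the groups against the spread between these samples. Without L*er* replicate 2, that spread was measured among the *ask1* arrays only. Promoter sequences were not analysed here. Also tried were limma-trend, the methods' t-test, the brightest probe set per gene, a filter on dim probe sets, gaps of 0.6 and 1.0, a replicate block and leaving out each array.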

Additional observations from a re-analysis of the deposited data

How the results depend on the processing

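The number of members followed the gap, with 54 at a gap of 0.6 and 16 at 1.0, and ranged from 27 to 48 when an array was left out. Centring each array gave 31 members, 27 of them shared, and quantile normalization gave 29, 25 of them shared. The excess of the 13 named members ranged from 0.83 to 1.95 after centring and from 0.80 to 1.91 after quantile normalization. *ask1* replicate 2 was the lowest of the other 4 arrays in 20 members, and in 19 after either change, an alternative added after seeing the data.

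With all arrays, the adjusted count of 3 became 1 with quantile normalization, 0 with the methods' t-test (1328 unadjusted) and 0 to 373 when an array was left out, highest without *ask1* replicate 2. The median ratio of the members then lay between -1.55, with L*er* replicate 1 omitted, and -0.18. In the comparison with L*er* replicate 1 only, the count of 5 became 9 after centring, 19 with limma-trend, 0 with a mean signal of at least 5 (1354 unadjusted), 0 with quantile normalization (1923 unadjusted) and 0 to 1478 when a further array was left out. The causes were not tested. A replicate block gave 2 calls, 836 at an unadjusted p and a median of -0.85. Arrays of equal number had correlations of deviations of -0.26 and -0.01, which with 2 L*er* arrays cannot show a pairing.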
